A study of Homo sapiens with 60 samples.

Results

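Arsenic and cadmium were compared directly after 24 h of exposure, with 3 libraries of arsenic-treated and 3 libraries of cadmium-treated 1321N1 cells, which are 6 of the 60 libraries of the series. The 6 libraries were chosen by their titles alone, and all 12341 genes with enough counts were tested between them. The 1321N1 line is a human astrocytoma line that is used as an astrocyte model. In the whole experiment, the cells were left non-treated or exposed to arsenic, cadmium, or mercury for 1.5, 3, 6, 12, or 24 h, with 3 libraries per group. Arsenic was given as sodium metaarsenite at 2.55 µM and cadmium as cadmium chloride at 2.3 µM, and the non-treated 24 h libraries had neither. According to the study's methods, the concentrations were chosen to kill an equal share of the cells, so the metals were matched by that aim and not by molarity, and each was given at a single concentration. The sources differ on what the replicates are. The series description calls them technical triplicates, the methods say that treatments in plates were done in triplicate, and a figure legend of the study speaks of independent experiments. The p-values therefore measure the spread between these libraries, which may be technical.

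The 6 libraries held between 2912801 and 4404609 counts. Each pair of cadmium libraries that included replicate 3 differed more than other replicate pairs, with a correlation of log values of 0.960 and 0.958, against 0.977 between cadmium replicates 1 and 2 and 0.967 to 0.971 among the arsenic libraries. Counts are therefore also given without that library. In bulk RNA, fewer cells expressing a gene and less RNA per cell cannot be told apart. Of the astrocyte markers, GFAP, S100B, AQP4, and ALDH1L1 had 0 counts in all 6 libraries, and 5 of the 11 markers listed did not exceed 3 counts. VIM lay between 3094 and 3267 CPM (counts scaled to 1000000 per library) with arsenic and between 3014 and 4975 CPM with cadmium. SOX9, an astrocyte transcription factor, was lower with arsenic than with cadmium (log2 fold change, LFC, -1.07, adjusted p = 8.55e-08). GJA1, CD44, and VIM were also lower by the adjusted p (LFC -0.91, -0.63, and -0.39). NES had an LFC of 0.98 and did not pass. All 4 oligodendrocyte markers and all 3 endothelial markers had at most 3 counts in every library. Some markers of other cell types were counted. The epithelial KRT18 lay between 46.3 and 71.3 CPM with arsenic and between 54.1 and 79.0 CPM with cadmium. The neuronal SYT1 lay between 12.7 and 21.8 CPM and between 7.44 and 14.8 CPM. The leukocyte markers PTPRC and CD68 reached 7 and 5 counts.

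Cells answer metals through several transcriptional programs. Metal-responsive transcription factor 1 senses free zinc, which cadmium displaces from proteins, and switches on the metallothioneins, small cysteine-rich proteins that bind zinc and cadmium, and the zinc exporter SLC30A1. Heat shock factor 1 responds to misfolded proteins and drives inducible chaperones such as the HSP70 proteins. NRF2 is released from KEAP1 when cysteines of KEAP1 are modified and drives heme oxygenase, glutathione, and thioredoxin genes. The integrated stress response (ISR) acts through phosphorylated eIF2α and the transcription factor ATF4, which raises amino acid transporters, serine and asparagine synthesis enzymes, and tRNA synthetases.

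For 4 of the genes named here, the 250 bases upstream of the transcription start are shown. They were picked because they hold a motif linked to a factor named above. The sequences were taken from RefSeq on GRCh38.p14, are written 5′ to 3′ on the strand of the gene, and carry the motif in capitals on whichever strand it was found. MT2A and MT1X were searched for the core of the metal response element, TGCACNC or TGCGCNC, HSPA6 for the heat-shock element, 3 alternating units of GAA and TTC spaced by 2 bases, and CHAC1 for the CEBP-ATF response element TGATGNAA.
MT2A, chr16:56608334-56608583, plus strand: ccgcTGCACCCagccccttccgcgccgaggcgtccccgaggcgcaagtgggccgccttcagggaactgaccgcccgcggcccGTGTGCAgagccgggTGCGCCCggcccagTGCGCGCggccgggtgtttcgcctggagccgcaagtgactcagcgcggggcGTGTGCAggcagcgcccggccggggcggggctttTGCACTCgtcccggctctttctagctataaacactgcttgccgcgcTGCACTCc
MT1X, chr16:56682220-56682469, plus strand: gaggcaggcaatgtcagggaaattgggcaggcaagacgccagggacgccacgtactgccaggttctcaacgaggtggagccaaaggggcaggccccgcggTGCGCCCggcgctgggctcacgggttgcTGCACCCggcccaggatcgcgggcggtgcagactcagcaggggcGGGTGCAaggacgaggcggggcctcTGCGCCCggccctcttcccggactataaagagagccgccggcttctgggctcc
HSPA6, chr1:161524290-161524539, plus strand: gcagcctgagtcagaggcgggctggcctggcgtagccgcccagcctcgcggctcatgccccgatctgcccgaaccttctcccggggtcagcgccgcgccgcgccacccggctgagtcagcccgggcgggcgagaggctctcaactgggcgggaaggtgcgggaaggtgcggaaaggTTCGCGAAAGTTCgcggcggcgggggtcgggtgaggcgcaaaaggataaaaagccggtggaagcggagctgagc
CHAC1, chr15:40953221-40953470, plus strand: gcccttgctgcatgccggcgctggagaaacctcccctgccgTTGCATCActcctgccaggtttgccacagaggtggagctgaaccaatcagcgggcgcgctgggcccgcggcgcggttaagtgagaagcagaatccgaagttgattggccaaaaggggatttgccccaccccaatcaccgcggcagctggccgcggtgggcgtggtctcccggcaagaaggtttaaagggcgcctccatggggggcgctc
The MT2A window held 7 matches and the MT1X window 4, and the HSPA6 and CHAC1 windows held 1 each. None of these matches overlapped a match of another motif searched. Over the promoters of all 27305 RefSeq genes with an entry, 28.5% held the metal response core at least 1 time, 3.89% the CEBP-ATF element, and 0.557% the heat-shock element. The antioxidant response element TGACNNNGC was found in 13.2% of them. Of the 47 genes named here, 35 had an entry. The metal response core was present in 6 of 14 genes that were lower with arsenic and in 7 of 17 that were higher, and the antioxidant element in 6 of 14 and 4 of 17. The CEBP-ATF element was present in 1 of 14 and 2 of 17, and the heat-shock element in 1 of 14 and 0 of 17. The windows of the heat-shock genes HSPA1A and ZFAND2A held no heat-shock element. Motif matches are descriptions of letters and not evidence of binding.

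A gene was called different when its adjusted p from edgeR was below 0.05 and its LFC lay beyond 1 in either direction. A positive LFC here stands for a higher level with arsenic and a negative LFC for a higher level with cadmium. By this rule, 120 genes were higher with arsenic (0.972% of the genes tested) and 176 were higher with cadmium (1.43%), 296 genes together (2.4%). Without cadmium replicate 3, the numbers were 104 and 125. By the adjusted p alone, 518 genes (4.2%) were higher and 736 genes (5.96%) lower with arsenic. The median LFC over all genes tested was 0.00617. The 3 arsenic libraries lay above the 3 cadmium libraries for 119 of the 120 genes, and below them for 169 of the 176, whereas over all genes tested this was so for 11.7% and 12.7%. The genes were called from these same 6 libraries, so this separation is largely given by the call. An LFC beyond 2 was reached by 22 of the genes higher with arsenic and by 53 of those higher with cadmium. Among the genes higher with arsenic, 104 coded for proteins and 12 were long non-coding RNAs, and among those higher with cadmium, 151 and 21.

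**Figure D1:**
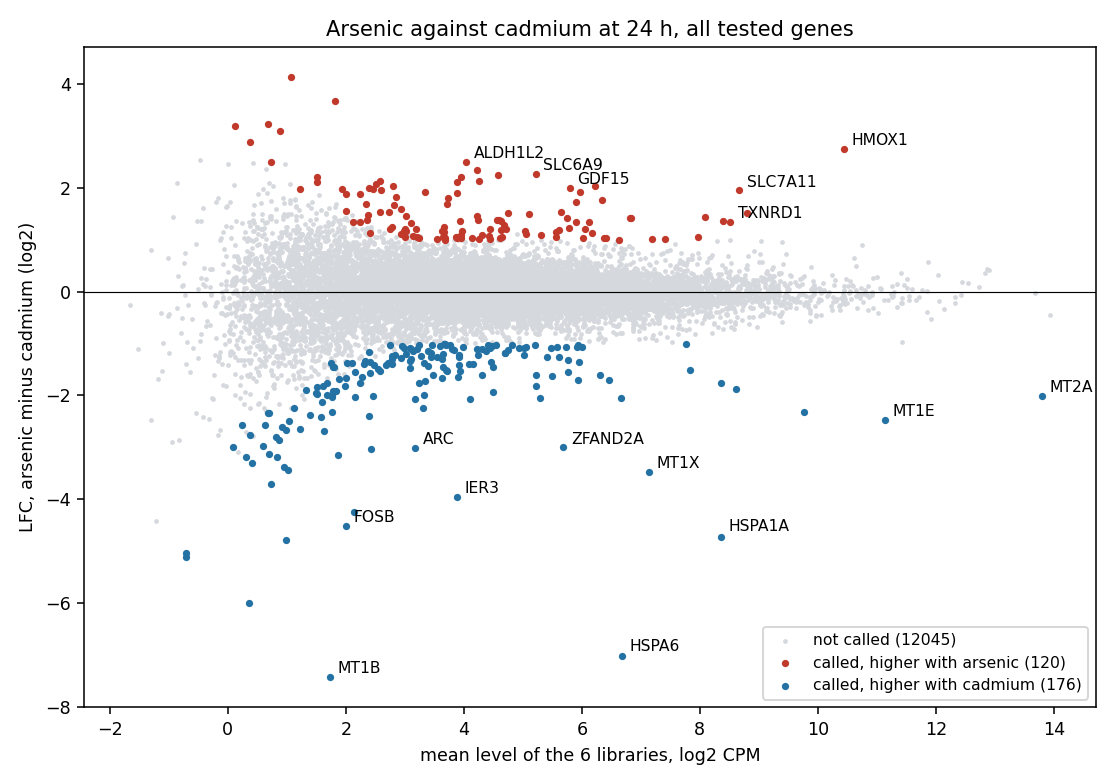
LFC between arsenic and cadmium at 24 h (log2, arsenic minus cadmium) against the mean level of the 6 libraries (log2 CPM), with each point a tested gene. The 120 genes called higher with arsenic are red and the 176 called higher with cadmium are blue, and the blue points reach further from 0, down to an LFC of -7.43 for MT1B.

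All 4 metallothioneins that could be tested were higher with cadmium than with arsenic, and they had the lowest median LFC of the 25 gene lists examined, -2.98. For MT1B, that direction was given by the filter on low counts. Among the arsenic, cadmium, and non-treated libraries, only those with cadmium could carry it past the filter. MT1B is included in the count and the median but cannot count toward the direction of the list. The other 9 listed metallothioneins were not tested. MT1X, on chromosome 16 from 56682470 to 56684196, had 20.1, 23.2, and 25.9 CPM in the arsenic libraries and 269, 243, and 265 CPM in the cadmium libraries. Non-treated cells had 7.07 ± 2.33 CPM (SD, n = 3), so every arsenic library lay above them as well, and every cadmium library lay far above both. The LFC of MT1X was -3.48 (standard error 0.17, adjusted p = 5.97e-27). MT1E, a neighbor on the same chromosome from 56625475 to 56627112, had 706, 761, and 584 CPM with arsenic and 3773, 3943, and 3676 CPM with cadmium. Its arsenic libraries varied more among themselves than its cadmium libraries, relative to their means, and the groups did not overlap. MT2A, on chromosome 16 from 56608584 to 56609497, had 6919, 6314, and 3788 CPM with arsenic, so replicate 3 lay well below the other 2. With cadmium, MT2A had 21585, 22088, and 24943 CPM. The groups were separate, and without arsenic replicate 3 the LFC was -1.80 instead of -2.01. MT1B was counted in the cadmium libraries only, at 4.09, 7.16, and 8.62 CPM, and had 0 counts in the arsenic and the non-treated libraries. It was at least 7.23-fold higher with cadmium than with arsenic, taking 3 counts per library as the limit that a count of 0 allows.

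Reads of metallothioneins are difficult to assign. When the last 400 bases of the annotated transcripts were cut into stretches of 50, 34.7% of those of MT1X, 18.4% of MT1B, 6.19% of MT1E, and 6.11% of MT2A also occur in another gene. MT1X and MT1B each overlap another annotated gene on the same strand, and the authors' counting leaves out reads that fall in such overlaps, so the levels of both are uncertain. HSPA6, TXNRD1, HERPUD1, MTHFD2, GDF15, SLC1A4, SLC7A5, and CTH, reported below, also overlap another annotated gene on their strand. How many of their reads were left out was not tested. A 115-base long non-coding RNA, ENSG00000289942 on chromosome 4 from 68376551 to 68376665, shares a run of 52 bases with MT2A. It had 251, 299, and 319 CPM with arsenic and 1391, 1434, and 1505 CPM with cadmium (LFC -2.32, standard error 0.13, adjusted p = 6.65e-23). Whether these counts come from its own transcript was not tested.

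Of the zinc transporters, none of the 16 tested members was called, against 2.4% of all genes tested. By the adjusted p alone, 1 was higher and 1 lower with arsenic, against 4.2% and 5.96%. By an unadjusted p below 0.05 the numbers were also 1 and 1, whereas 10.8% of all genes tested were higher and 12.6% lower by that limit (23.4% in either direction), and DESeq2 called 0 members. SLC30A1, which exports zinc from the cytosol, had 85.6, 91.7, and 82.8 CPM with arsenic and 163, 147, and 128 CPM with cadmium, against 41.3 ± 3.42 CPM in non-treated cells (SD, n = 3). The metal groups did not overlap, and the LFC of -0.76 passed the adjusted p (standard error 0.12, adjusted p = 4.57e-06) but not the limit on its size. SLC39A14, an importer of zinc, iron, and manganese, was the member that was higher with arsenic (LFC 0.50, adjusted p = 0.0317). SLC39A10, a zinc importer, had 7.36, 16.2, and 15.9 CPM with arsenic and 12.3, 10.3, and 10.4 CPM with cadmium. Its groups overlapped and no difference was detectable (LFC 0.26, standard error 0.29, adjusted p = 0.646).

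**Figure D2:**
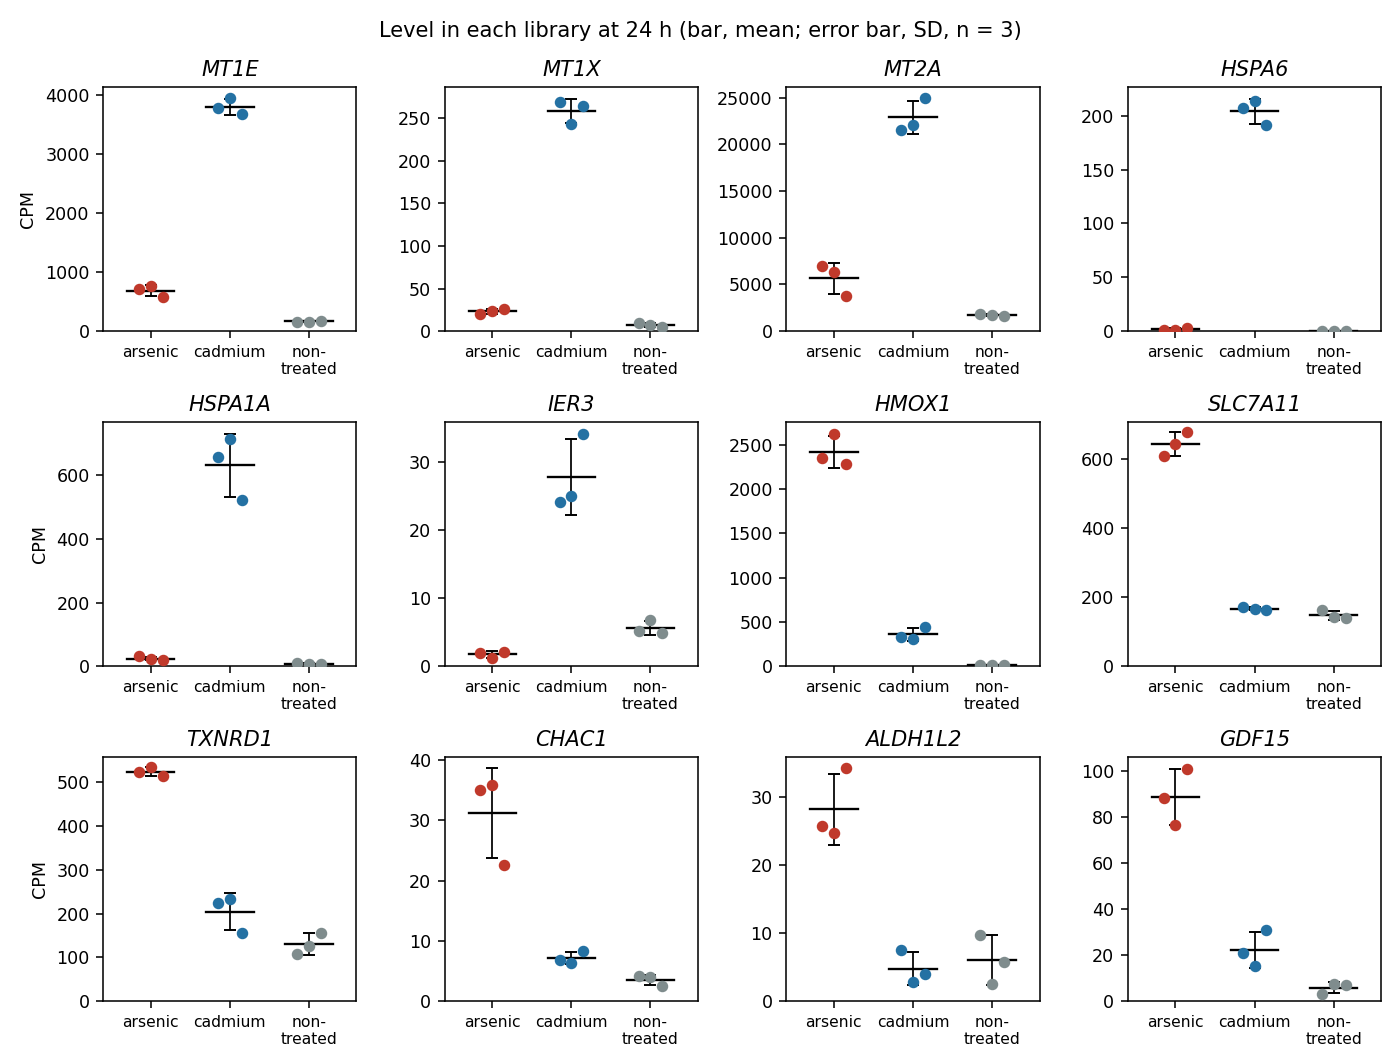
CPM of 12 genes in each library at 24 h, with points for the 3 libraries of arsenic, cadmium, and non-treated cells, horizontal bars for means, and error bars for the SD (n = 3). MT1E, MT1X, MT2A, HSPA6, HSPA1A, and IER3 have every cadmium library above every arsenic library, and the other 6 genes have every arsenic library above every cadmium library.

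The heat-shock genes differed in a few members by a large amount and in most members little. Of 35 tested, 5 were called (14.3%), all higher with cadmium, namely HSPA6, HSPA1A, ZFAND2A, DNAJB1, and HSPA1B. Over all genes tested, 1.43% were called higher with cadmium. The median LFC of the list was -0.20. By the adjusted p alone, 12 members were lower and 3 higher with arsenic, against 5.96% and 4.2% of all genes tested. HSPA6, a strictly inducible HSP70 on chromosome 1 from 161524540 to 161526894, had 1.34, 0.579, and 2.65 CPM with arsenic and 207, 214, and 191 CPM with cadmium. Non-treated cells had 1 count of HSPA6 in 3 libraries together, against 15 counts with arsenic. The arsenic to non-treated ratio was 16.2 with a 95% interval of 2.49 to 680, which covers counting error only. The LFC between the metals was -7.03 (standard error 0.26, adjusted p = 6.18e-33), the largest of any gene whose mean count reached 50. HSPA1A, the major inducible HSP70, had 31.1, 21.4, and 19.7 CPM with arsenic and 657, 715, and 522 CPM with cadmium, against 7.78 ± 2.47 CPM in non-treated cells (SD, n = 3).

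HSPA1B, the near-identical neighbor of HSPA1A, was called with a smaller LFC of -1.76 (adjusted p = 3.24e-15), and 6.76% of the 3′ stretches of HSPA1A occur in HSPA1B. ZFAND2A, which brings arsenite-damaged proteins to the proteasome and is also known as AIRAP, had 12.7, 8.39, and 13.0 CPM with arsenic and 72.3, 87.0, and 115 CPM with cadmium. Non-treated cells had 6.79 ± 3.97 CPM of ZFAND2A (SD, n = 3), and no difference of arsenic from these was detectable (LFC 0.76, adjusted p = 0.0953). DNAJB1, the cofactor of HSP70, had an LFC of -1.87 (adjusted p = 2.44e-20). Among the members that passed only the adjusted p, HSPH1 had an LFC of -0.72 and HSP90AA1 of -0.45, whereas HSPA8, the constitutive HSP70, had an LFC of 0.33, SERPINH1, a collagen chaperone, of 0.37, and DNAJB9, a chaperone of the endoplasmic reticulum, of 0.79. BAG3, HSPD1, and DNAJA1 had LFCs between -0.11 and 0.14 and did not pass the test.

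The NRF2 targets were higher with arsenic. Of 37 tested, 11 were called higher (29.7%, against 0.972% of all genes tested) and none lower. By the adjusted p alone, 26 were higher and 0 lower, against 4.2% and 5.96% of all genes tested. By an unadjusted p below 0.05, 31 were higher and 0 lower, against 10.8% and 12.6%. DESeq2 called 11 higher and 0 lower, whereas a test of whether the LFC itself lay beyond 1 (glmTreat) called 3 higher. The median LFC of the list was 0.72. HMOX1, the enzyme that cleaves heme, on chromosome 22 from 35380361 to 35394214, had 2353, 2621, and 2276 CPM with arsenic and 324, 310.1, and 442 CPM with cadmium. Non-treated cells had 13.0 ± 2.69 CPM (SD, n = 3), so both metals raised HMOX1 and the lowest arsenic library was several times the highest cadmium library. Its LFC was 2.75 (standard error 0.13, adjusted p = 1.3e-26), the largest toward arsenic among genes whose mean count reached 50. BLVRB, a biliverdin reductase, had 66.6, 61.4, and 63.0 CPM with arsenic and 27.0, 26.3, and 39.2 CPM with cadmium, and its LFC of 1.06 was 0.97 without cadmium replicate 1 or 2. FECH, which inserts iron into heme, had 17.4, 19.1, and 14.7 CPM with arsenic and 6.82, 11.2, and 7.55 CPM with cadmium, and its LFC of 1.01 was no longer called without arsenic replicate 1 or 2 or without cadmium replicate 1 or 3. HMOX1, BLVRB, and FECH were the 3 called members of the 27 tested iron and heme genes, whose median LFC was 0.25. These calls were 11.1% of the list, against 0.972% of all genes tested called higher, and the test of an LFC beyond 1 called 1. HMOX1 is on both the NRF2 list and this list.

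TXNRD1, the cytosolic thioredoxin reductase, had 522, 535, and 515 CPM with arsenic and 225, 232, and 156 CPM with cadmium, against 130.0 ± 24.7 CPM in non-treated cells (SD, n = 3). The arsenic libraries were close together and above all others, and cadmium replicate 3 was about level with the highest non-treated library (LFC 1.35, standard error 0.15, adjusted p = 5.83e-11). GCLM, the modifier subunit of the enzyme that starts glutathione synthesis, had 441, 495, and 515 CPM with arsenic and 182, 177, and 208 CPM with cadmium (LFC 1.36, standard error 0.09, adjusted p = 2.7e-19). GCLC, the catalytic subunit of the same enzyme, had an LFC of 0.62 that did not pass the test. AKR1C3, an aldo-keto reductase, had 12.0, 19.7, and 16.2 CPM with arsenic and 3.41, 4.01, and 5.39 CPM with cadmium, and AKR1C1 and AKR1C2 had LFCs of 1.42 and 1.80. These 3 genes share sequence, with 9.6% of the AKR1C3 stretches found in another gene, and AKR1C3 lost its call without arsenic replicate 2 or without cadmium replicate 1 or 2. FTH1 and SQSTM1, for the ferritin heavy chain and the p62 autophagy receptor, had LFCs of 0.90 and 0.96 and passed only the adjusted p, as did NQO1 with 0.45. KEAP1 and PRDX1 had LFCs of 0.11 and 0.12 and did not pass the test.

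Of 23 glutathione genes tested, 4 were called higher with arsenic and none lower, with a median LFC of 0.27. Besides GCLM, these were CHAC1, CTH, and GLRX, and CHAC1 is also on the ISR list. The calls were 17.4% of the list, against 0.972% of all genes tested called higher, and the test of an LFC beyond 1 called 2. By the adjusted p alone, 7 were higher and 1 lower with arsenic, against 4.2% and 5.96% of all genes tested. CHAC1, which breaks glutathione down, had 35.1, 35.9, and 22.7 CPM with arsenic and 6.82, 6.3, and 8.26 CPM with cadmium (LFC 2.14, standard error 0.29, adjusted p = 6.24e-08). CTH, which makes cysteine by transsulfuration, had 22.1, 28.4, and 19.4 CPM with arsenic and 6.14, 6.3, and 6.11 CPM with cadmium. Both a synthesis and a degradation enzyme of glutathione were among the genes higher with arsenic. In the list of 24 selenoproteins and thioredoxin genes, TXNRD1 was called higher, and SELENOT, an oxidoreductase of the endoplasmic reticulum, was called higher with cadmium (LFC -1.07, standard error 0.14, adjusted p = 2.34e-08). Each is 4.17% of that list, against 0.972% and 1.43% of all genes tested, and the test of an LFC beyond 1 called neither. SELENOT had 32.1, 40.5, and 29.5 CPM with arsenic, 64.8, 81.9, and 68.6 CPM with cadmium, and 76.8 ± 9.54 CPM in non-treated cells (SD, n = 3). It passed only the adjusted p without arsenic replicate 3 or cadmium replicate 2, and 15.8% of its 3′ stretches occur in a pseudogene.

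The list of ISR transcription factors and effectors had the highest median LFC of the 25 lists, 0.94. Of 32 tested, 13 were called higher with arsenic (40.6%, against 0.972% of all genes tested) and 1 was called higher with cadmium (3.12%, against 1.43%). By the adjusted p alone, 21 were higher and 3 lower with arsenic, against 4.2% and 5.96% of all genes tested. The test of an LFC beyond 1 called 5 higher and 0 lower. GDF15, a stress-induced cytokine on chromosome 19 from 18374731 to 18389176, had 88.3, 76.7, and 101 CPM with arsenic and 20.9, 15.2, and 30.9 CPM with cadmium, against 5.9 ± 2.46 CPM in non-treated cells (SD, n = 3). Its groups did not overlap (LFC 2.01, standard error 0.23, adjusted p = 1.97e-10). INHBE, the βE subunit of activin, had 26.4, 24.3, and 21.2 CPM with arsenic and 3.86, 5.44, and 7.55 CPM with cadmium, which overlapped the non-treated level of 3.63 ± 1.29 CPM (SD, n = 3). SESN2, an inhibitor of mTORC1, had 127, 107, and 99.3 CPM with arsenic and 48.6, 51.3, and 64.3 CPM with cadmium, against 21.0 ± 2.49 CPM in non-treated cells (SD, n = 3). Its LFC of 1.03 fell below 1 without arsenic replicate 1 or without cadmium replicate 1 or 2, with adjusted p-values of at most 7.73e-05. TRIB3, a pseudokinase that binds ATF4, had an LFC of 1.77, PCK2, the mitochondrial enzyme that makes phosphoenolpyruvate, of 1.74, and GPT2, an alanine aminotransferase, of 1.41.

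The member higher with cadmium was ATF3, a transcription factor that several stress pathways induce. It had 11.4, 15.6, and 16.5 CPM with arsenic and 25.7, 36.6, and 28.4 CPM with cadmium, and both groups lay above the non-treated 6.9 ± 0.412 CPM (SD, n = 3). Its LFC was -1.05 (standard error 0.25, adjusted p = 0.00194) and did not reach 1 in size without arsenic replicate 1 or cadmium replicate 2. HERPUD1, which takes part in the degradation of proteins of the endoplasmic reticulum, had 103, 90.01, and 86.3 CPM with arsenic and 38.6, 46.1, and 35.2 CPM with cadmium. It was the only called member of the 23 tested chaperones and folding genes of the endoplasmic reticulum, whose median LFC was 0.05. That is 4.35% of the list, against 0.972% of all genes tested, and the test of an LFC beyond 1 called 0 higher.

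Amino acid transporters and synthesis enzymes were higher with arsenic in part. Of 20 transporters tested, 4 were called higher (20%, against 0.972% of all genes tested), SLC6A9, SLC7A11, SLC1A4, and SLC43A1, with a median LFC of 0.45. By the adjusted p alone, 9 were higher and 0 lower, against 4.2% and 5.96% of all genes tested. By an unadjusted p below 0.05, 11 were higher and 0 lower, against 10.8% and 12.6%. DESeq2 called 4 and 0, and the test of an LFC beyond 1 called 2 higher. SLC7A11 is also on the NRF2 list. SLC6A9, the glycine transporter GlyT1, had 60.9, 68.0, and 56.5 CPM with arsenic and 15.2, 12.0, and 10.4 CPM with cadmium, the latter next to the non-treated 10.8 ± 1.38 CPM (SD, n = 3). SLC7A11, the cystine-glutamate exchanger, had 607, 642, and 678 CPM with arsenic and 171, 165, and 163 CPM with cadmium. The cadmium libraries of SLC7A11 differed from each other by less than the arsenic libraries did. SLC1A4, which carries alanine, serine, and cysteine, had 84.3, 72.1, and 78.0 CPM with arsenic and 32.0, 23.2, and 32.3 CPM with cadmium.

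SLC3A2 is the heavy chain that pairs with SLC7A11 and with SLC7A5. It had 425, 418, and 403 CPM with arsenic and 212, 212, and 207 CPM with cadmium, and SLC7A5, the large neutral amino acid transporter LAT1, had 135, 139, and 111 CPM and 63.2, 65.9, and 66.8 CPM. Neither group pair overlapped, and both LFCs of 0.98 were just under the limit (adjusted p = 2.5e-12 for SLC3A2 and 1.83e-06 for SLC7A5). Without arsenic replicate 3, SLC7A5 was called with an LFC of 1.07.

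Of 19 tested genes for the synthesis of serine, one-carbon units, proline, and asparagine, 4 were called higher with arsenic and none lower, with a median LFC of 0.32. The calls were 21.1% of the list, against 0.972% of all genes tested called higher. PSAT1, the aminotransferase of serine synthesis, had 675, 735, and 579 CPM with arsenic and 265, 263, and 160.2 CPM with cadmium. MTHFD2, a mitochondrial folate enzyme, had 364, 452, and 382 CPM with arsenic and 160.5, 157, and 124 CPM with cadmium. ALDH1L2, which oxidizes formyl-folate in mitochondria, had 25.8, 24.6, and 34.2 CPM with arsenic and 7.5, 2.86, and 3.95 CPM with cadmium. In each case the groups were separate, and the cadmium libraries lay at or near the non-treated levels of 230.4 ± 35.3, 133 ± 17.9, and 6.01 ± 3.67 CPM (SD, n = 3). PHGDH, which starts serine synthesis, had an LFC of 1.05 (adjusted p = 8.83e-16).

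The cytosolic tRNA synthetases moved in both directions. Of 20 tested, WARS1, for tryptophan, was the only call, with 80.6, 83.9, and 94.0 CPM with arsenic and 35.9, 34.1, and 31.3 CPM with cadmium (LFC 1.35, standard error 0.15, adjusted p = 2.47e-10). That is 5% of the list, against 0.972% of all genes tested, and the test of an LFC beyond 1 called 0 higher. By the adjusted p alone, 11 were higher and 4 lower with arsenic, against 4.2% and 5.96% of all genes tested. Among the higher were GARS1 with an LFC of 0.92, IARS1 with 0.89, CARS1 with 0.78, and SARS1 with 0.75. The 4 that were lower with arsenic were FARSA and FARSB, the subunits of the phenylalanine enzyme, with LFCs of -0.67 and -0.44, VARS1 with -0.49, and KARS1 with -0.29. The median LFC of the list was 0.34.

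**Figure D3:**
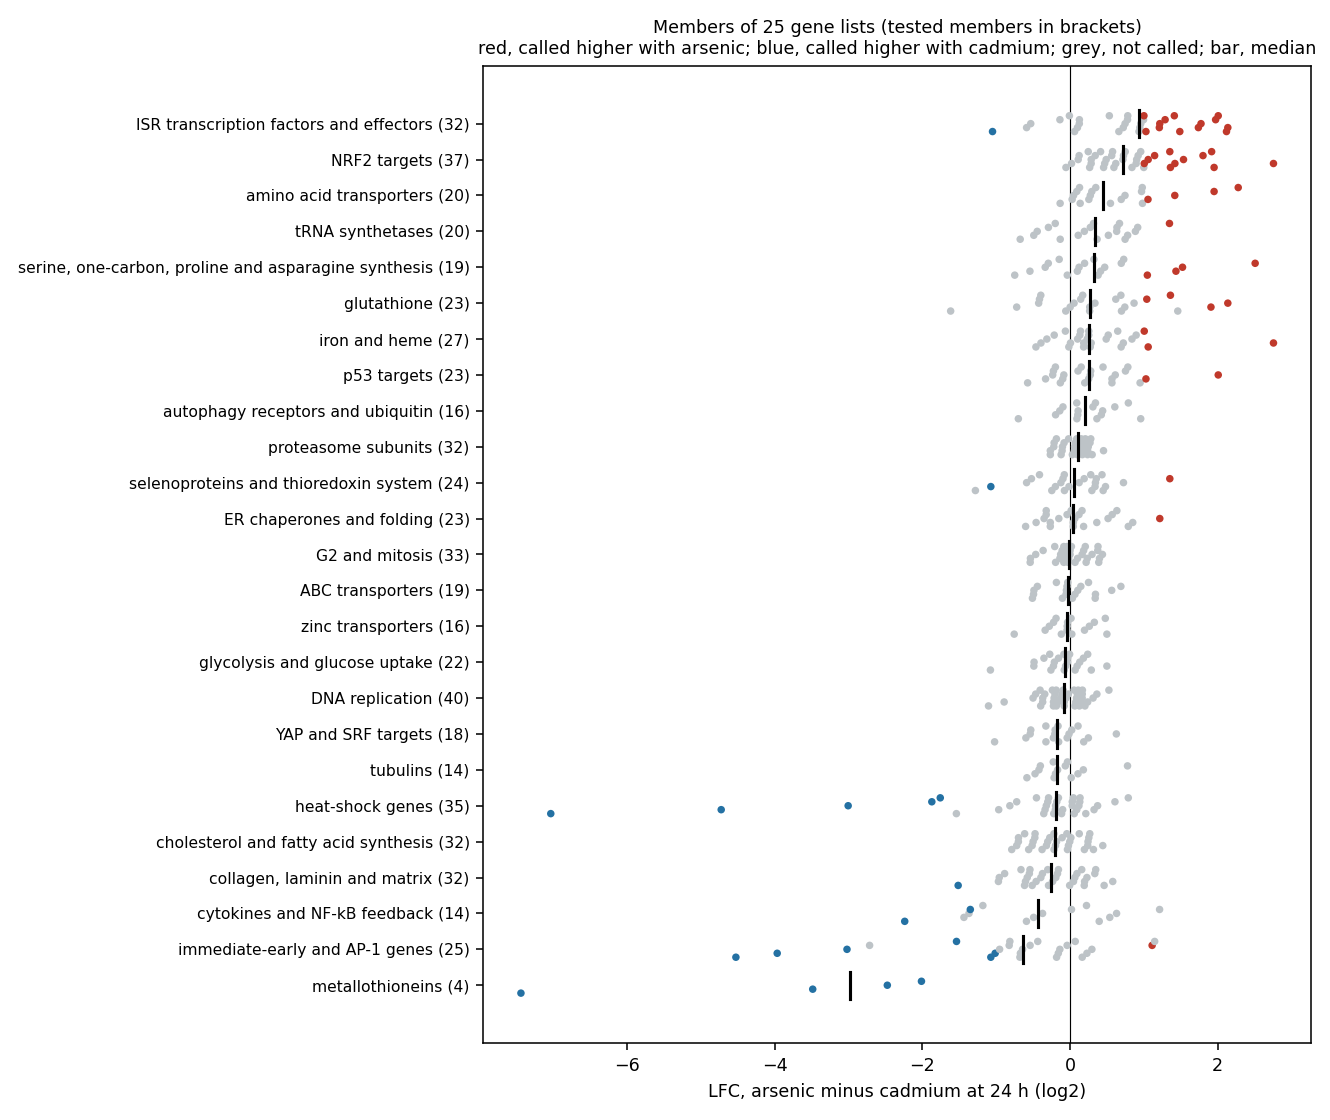
LFC between arsenic and cadmium at 24 h (log2) of each tested member of the 25 gene lists, ordered by the list median, which a black bar marks. Red points are members called higher with arsenic, blue points members called higher with cadmium, and grey points members not called, and the medians run from -2.98 for the metallothioneins to 0.94 for the ISR list.

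Immediate-early and AP-1 genes were mostly higher with cadmium. Of 25 tested, 6 were called higher with cadmium (24%) and 1 with arsenic (4%), against 1.43% and 0.972% of all genes tested. The median LFC was -0.64. By the adjusted p alone, 13 were lower and 1 higher with arsenic, against 5.96% and 4.2% of all genes tested. The test of an LFC beyond 1 called 3 higher with cadmium and 0 with arsenic. IER3, a survival gene on chromosome 6 from 30743199 to 30744548, had 2.01, 1.16, and 2.06 CPM with arsenic and 24.1, 24.9, and 34.1 CPM with cadmium. Non-treated cells, with 5.61 ± 1.01 CPM (SD, n = 3), lay between the metals, and IER3 was lower with arsenic (LFC -1.67, adjusted p = 0.0164) and higher with cadmium (LFC 2.30, adjusted p = 1.14e-05) than in those cells. The difference of arsenic from non-treated cells did not pass without arsenic replicate 2 (adjusted p = 0.0985) or non-treated replicate 2 (adjusted p = 0.0743). ARC, an activity-regulated gene of neurons that is also induced in other cells, followed the same order, with 2.68, 0.868, and 2.36 CPM with arsenic, 14.5, 16.0, and 17.6 CPM with cadmium, and 6.02 ± 1.99 CPM in non-treated cells (SD, n = 3). Its difference from non-treated cells did not pass for arsenic without arsenic or non-treated replicate 2 (adjusted p = 0.101 and 0.0871), or for cadmium without non-treated replicate 1 or 3 (adjusted p = 0.0961 and 0.0867). FOSB, an AP-1 subunit, had 1 count in each arsenic library and 9.55, 11.5, and 2.16 CPM with cadmium. Replicate 3 was the lowest of the cadmium libraries, and the cadmium to arsenic ratio of summed counts was 27.0 (95% interval 8.95 to 134, counting error only). JUN, JUND, and JUNB had LFCs of -0.82, -0.68, and -0.44 and passed only the adjusted p, whereas EGR1 and FOSL1 had LFCs of -0.04 and 0.07 and did not pass.

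KLF2, DUSP1, and KLF6 were the other called members, with LFCs of -1.54, -1.07, and -1.01. DUSP4, a phosphatase that turns off MAP kinases, was the member called higher with arsenic, with 37.1, 50.6, and 48.6 CPM against 23.6, 17.5, and 21.9 CPM with cadmium. Its groups were separate, and its LFC of 1.11 was 0.998 without cadmium replicate 2. GADD45B, a growth arrest gene, had 35.1, 38.8, and 43.6 CPM with arsenic and 149, 166, and 175 CPM with cadmium. Non-treated cells had 61.7 ± 1.47 CPM (SD, n = 3), so every arsenic library lay below them and every cadmium library above them (LFC between the metals -2.05, standard error 0.11, adjusted p = 8.66e-24).

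Among genes for cytokines and NF-κB feedback, the calls were lower with arsenic, 14.3% of those tested against 1.43% of all genes tested. TNFAIP3, the A20 inhibitor of NF-κB, had 3.68, 3.18, and 3.24 CPM with arsenic and 12.0, 12.9, and 24.1 CPM with cadmium, and BIRC3, an inhibitor of apoptosis, had 10.7, 17.7, and 8.84 CPM and 34.1, 31.5, and 29.5 CPM. They were the 2 calls of 14 tested genes, whose median LFC was -0.43. For both, the cadmium libraries were near the non-treated 15.2 ± 4.69 and 38.9 ± 6.03 CPM (SD, n = 3), and the arsenic libraries lay below (LFC against non-treated -2.15 and -1.64, adjusted p = 2.78e-07 and 8.99e-11). By the adjusted p alone, 10 of 32 tested matrix genes were lower and 2 higher with arsenic, with a median LFC of -0.26. Over all genes tested, 5.96% were lower and 4.2% higher by that limit. Among the lower matrix genes were FBN1 with an LFC of -0.97, COL8A1 with -0.89, and COL5A1 with -0.66.

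Other lists had no call in the direct comparison. Over all genes tested 2.4% were called, so 0 calls in lists of this size is near that share. They were the proteasome subunits (32 tested, median LFC 0.10), DNA replication (40 tested, -0.09), G2 and mitosis (33 tested, -0.02), cholesterol and fatty acid synthesis (32 tested, -0.21), YAP and SRF targets (18 tested, -0.18), glycolysis (22 tested, -0.07), tubulins (14 tested, -0.18), ABC transporters (19 tested, -0.03), and autophagy receptors and ubiquitin (16 tested, 0.21). DESeq2 called 0 members of these lists. By an unadjusted p below 0.05 they had between 3 and 13 members. This was between 15.8% and 42.9% of a list, against 23.4% of all genes tested. By the adjusted p alone, 7 cholesterol and fatty acid genes were lower with arsenic, among them FASN with an LFC of -0.79 and SREBF2 with -0.56, and 1 was higher. Over all genes tested, 5.96% were lower and 4.2% higher by that limit. None of the 32 proteasome subunits passed the adjusted p, against 10.2% of all genes tested in either direction, whereas 12 (37.5%) passed an unadjusted p below 0.05, against 23.4% of all genes tested, and DESeq2 called 0. Of the 23 p53 targets tested, the calls were GDF15 and SESN2, which are also on the ISR list. They made up 8.7% of the p53 list, against 0.972% of all genes tested called higher, and the test of an LFC beyond 1 called 1.

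Some of the genes with the largest differences were on none of the lists. UNC5B, a netrin receptor, had 23.7, 39.6, and 30.6 CPM with arsenic and 7.05, 6.01, and 5.03 CPM with cadmium, and SEL1L3 had 114, 111, and 136 CPM and 34.8, 23.2, and 29.1 CPM. The cadmium libraries of both lay around the non-treated levels of 7.52 ± 2.52 and 23.9 ± 6.05 CPM (SD, n = 3). HTRA3, a secreted serine protease, had 16.1, 33.3, and 27.1 CPM with arsenic and 4.55, 6.87, and 5.03 CPM with cadmium but 0 counts in the non-treated libraries, so it was at least 29.9-fold and at least 6.44-fold higher with the metals than without. A long non-coding RNA on chromosome 16 from 88177298 to 88186929, ENSG00000261327, had 41.8, 33.0, and 43.9 CPM with arsenic and 8.18, 6.87, and 10.1 CPM with cadmium. On the other side, CCL26, an eotaxin, had 9.03, 4.34, and 6.48 CPM with arsenic and 22.0, 22.3, and 39.2 CPM with cadmium. CPA4, a carboxypeptidase, had 18.4, 17.7, and 9.72 CPM with arsenic and 71.6, 58.7, and 58.2 CPM with cadmium, the latter at the non-treated 61.5 ± 9.9 CPM (SD, n = 3).

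To see which metal moved away from the non-treated cells, the LFCs of each metal against the same 3 non-treated libraries are given side by side. The comparisons share these libraries, and each also shares its metal libraries with the direct comparison. Against non-treated cells, 233 genes were called higher (1.89%) and 176 lower (1.43%) with arsenic, and 65 higher (0.527%) and 12 lower (0.0972%) with cadmium. For several metallothionein and chaperone genes, both metals had positive LFCs, 2.06 with arsenic and 4.53 with cadmium for MT1E, 1.69 and 3.71 for MT2A, and 1.59 and 6.32 for HSPA1A. This did not hold for MT1B, with 0 counts in the arsenic and the non-treated libraries, or for DNAJB1, with an LFC of -0.16 with arsenic (adjusted p = 0.432) and 1.71 with cadmium. HMOX1 likewise had 7.55 with arsenic and 4.79 with cadmium. Some amino acid genes had a small LFC with cadmium, with 2.13 for arsenic and 0.18 for cadmium (adjusted p = 0.541) at SLC7A11, 2.51 and 0.23 (adjusted p = 0.779) at SLC6A9, and 1.52 and 0.00 (adjusted p = 0.999) at PSAT1. Others had a larger one, with 1.68 and 0.69 (adjusted p = 9.5e-07) at SLC3A2, 1.43 and 0.38 (adjusted p = 0.00535) at PHGDH, and 1.41 and 0.44 (adjusted p = 0.183) at SLC7A5. For TNFAIP3 and CPA4, arsenic had LFCs of -2.15 and -2.01 and cadmium of 0.09 and 0.04, and the latter did not pass the test. Over the NRF2 list, the median LFC was 1.03 with arsenic and 0.35 with cadmium, and over the ISR list 1.42 and 0.48.

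The difference between the metals was set against that at 12 h, which was measured in other libraries. At 12 h, 38 genes were called higher with arsenic (0.308%) and 118 higher with cadmium (0.956%). Of these, 7 were also called higher with arsenic at 24 h, which is 5.83% of the 24 h calls and 18.4% of the 12 h calls. Of the genes higher with cadmium, 39 were called at both times, 22.2% of the 24 h and 33.1% of the 12 h calls. The genes called higher with arsenic at 24 h had a median LFC of 1.36 then and of 0.35 at 12 h, and those higher with cadmium had -1.53 and -0.58. Since the genes were chosen at 24 h, a smaller value at 12 h is in part given by that choice. The LFC at 12 h had the same sign in 87 of the 120 and in 135 of the 176.

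The change of the difference between 12 and 24 h was tested itself, by the adjusted p alone. It was significant for 447 genes (3.62%), upward, that is toward arsenic, for 263 and toward cadmium for 184. These numbers depended on single libraries, with 97 and 48 without cadmium 24 h replicate 3 and 398 and 295 without arsenic 12 h replicate 3, and with only the libraries compared in the fit they were 130 and 64. Among the genes called at 24 h, 41 of the 120 higher with arsenic and 36 of the 176 higher with cadmium differed more at 24 than at 12 h, and 0 and 1 differed less. Since these genes were chosen at 24 h, this imbalance is in part given by that choice. GDF15 had LFCs of opposite sign at the time points, with 14.3 ± 2.65 CPM with arsenic and 28.8 ± 2.72 CPM with cadmium at 12 h (SD, n = 3 each). It was called higher with cadmium at 12 h (LFC -1.01, adjusted p = 0.00636) and higher with arsenic at 24 h, a change in LFC of 3.01 (standard error 0.34, adjusted p = 4.02e-09). The call at 12 h was lost without arsenic 12 h replicate 1 (LFC -0.92, adjusted p = 0.054) or replicate 2 (LFC -0.94), without cadmium 12 h replicate 3 (LFC -0.92), and without the filter on low counts (LFC -0.99), and the LFC stayed negative in each. TXNRD1 had 329.8 ± 85.6 CPM with arsenic and 452 ± 64.3 CPM with cadmium at 12 h (SD, n = 3 each), a difference on the other side of 0 that passed the adjusted p (LFC -0.46, adjusted p = 0.0416), and its LFC changed by 1.81 to 24 h (standard error 0.20, adjusted p = 4.02e-09). HMOX1 had 1594 ± 97.7 CPM with arsenic and 953 ± 75.5 CPM with cadmium at 12 h (SD, n = 3 each). From there to 24 h the mean with arsenic was higher and that with cadmium lower, and the LFC changed by 2.01 (standard error 0.18, adjusted p = 1.16e-12).

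In the metallothioneins, the difference was already present at 12 h, and at earlier times as well. The LFC of MT1X was -2.16 after 3 h and -3.38 after 6 h, and then -3.46 (12 h) and -3.48 (24 h), and the change from 12 to 24 h was not significant (-0.03, standard error 0.22, adjusted p = 0.968). For MT1E, the difference was larger at 12 h (LFC -3.16) than at 24 h, and the change of 0.69 was significant (standard error 0.14, adjusted p = 0.00186). The mean of MT1E with cadmium was 6997 ± 1017 CPM at 12 h and 3797 ± 135 CPM at 24 h (SD, n = 3 each). HSPA1A had LFCs of 0.33 at 3 h (adjusted p = 0.834), -0.91 at 6 h, and -3.86 at 12 h. ARC was not called different at 12 h (LFC -0.82, adjusted p = 0.282), and its LFC changed by -2.20 to 24 h (standard error 0.60, adjusted p = 0.0249), which did not pass without 5 of the 12 libraries in turn (adjusted p = 0.0547 to 0.108).

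**Figure D4:**
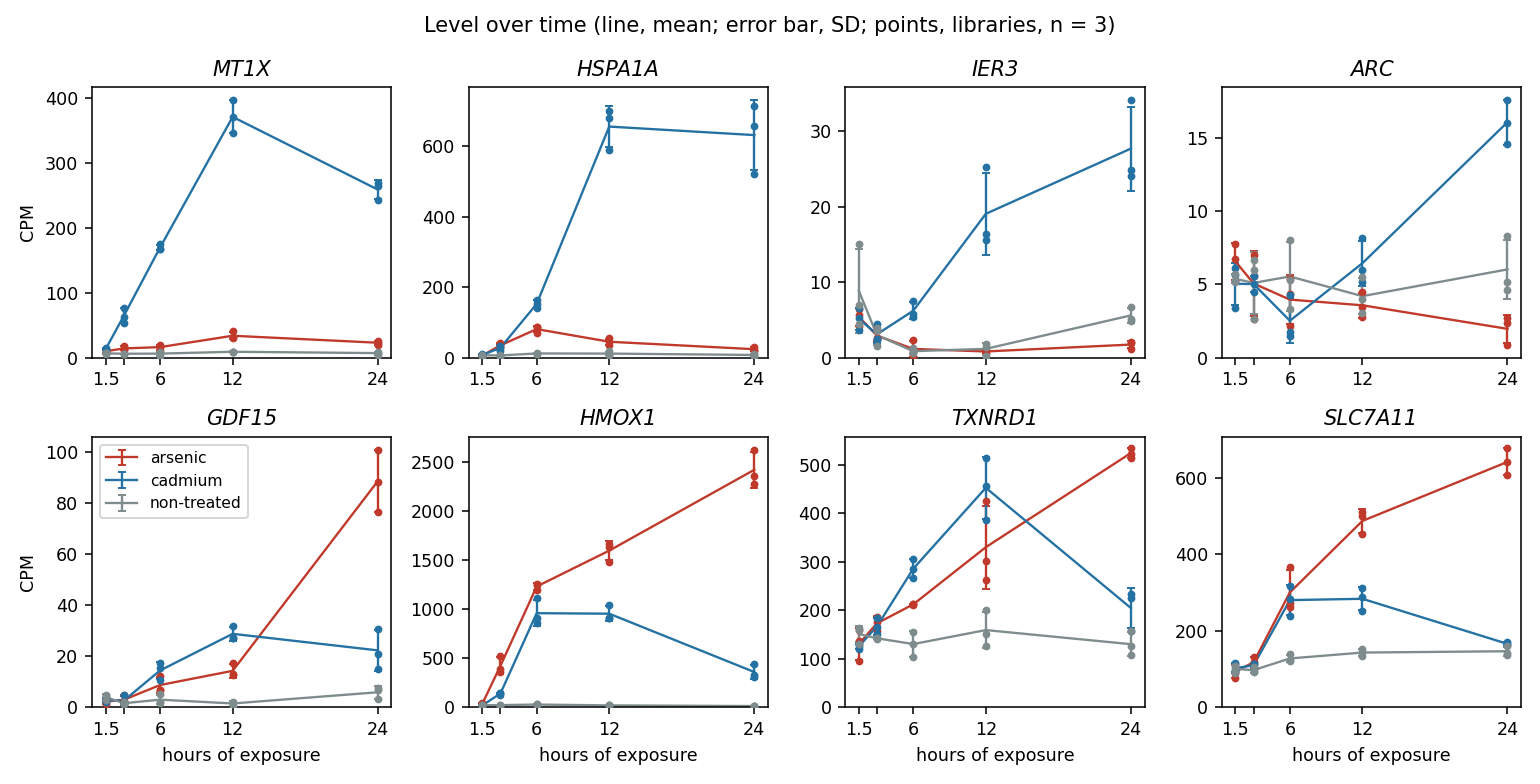
CPM of 8 genes over hours of exposure, with points for the 3 libraries per group, lines through the means, and error bars for the SD (n = 3). Cadmium (blue) passed the adjusted p against arsenic (red) from 3 h for MT1X, with 0.777 at 1.5 h, and from 6 h for HSPA1A and IER3, with 0.834 and 0.985 at 3 h, whereas for GDF15 and TXNRD1 the lines cross between 12 and 24 h.

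**Figure D5:**
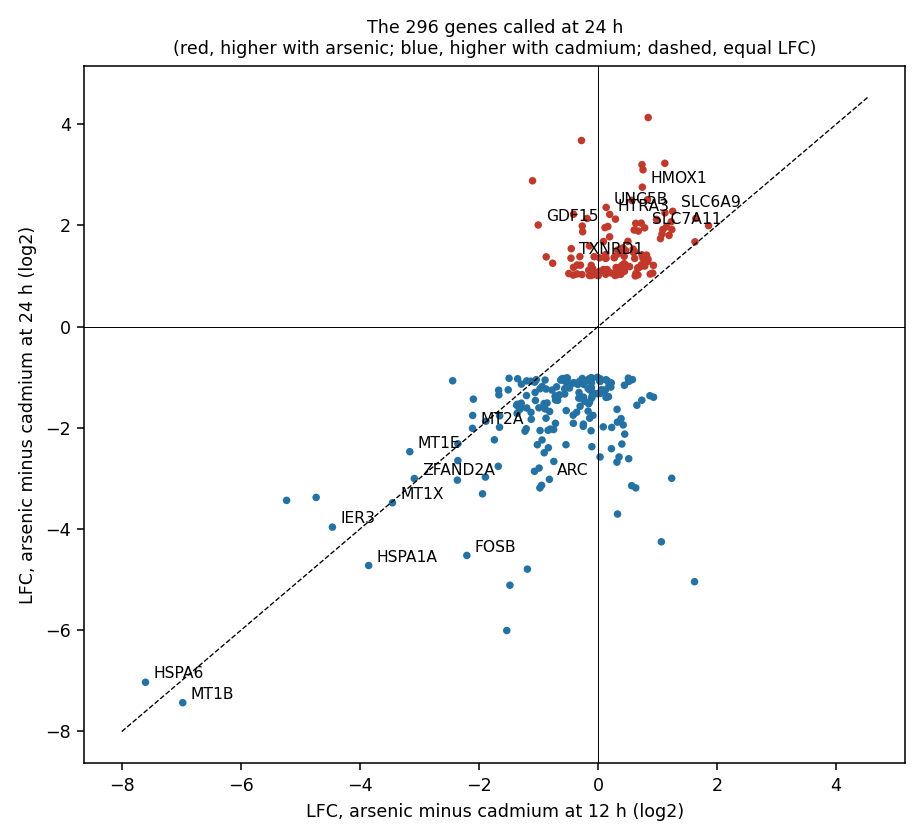
LFC between arsenic and cadmium at 24 h against that at 12 h (both log2) for the 296 genes called at 24 h, with the dashed line marking equal values. HSPA6, MT1B, MT1X, and IER3 lie near the line, and GDF15 had an LFC of -1.01 at 12 h and 2.01 at 24 h. The genes higher with arsenic had a median LFC of 0.35 at 12 h and 1.36 at 24 h, which is in part given by their choice at 24 h.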

How the data were processed

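The authors sequenced poly(A) RNA from the 3′ end (QuantSeq 3′ FWD, single-end), aligned the reads with STAR 2.7.9a to GRCh38 with GENCODE annotation, and counted reads per gene with strand, leaving out reads in overlaps of genes. The deposited values are these raw counts for 62703 genes, without normalization, so the CPM given here (counts scaled to 1000000 per library) were computed from the counts. The 92 spike-in entries held 0 counts. For differential expression, the counts were analyzed with edgeR 4.0.16 (R 4.3.3), the quasi-likelihood test, with all 60 libraries and 20 groups in a single fit, TMM scaling, and Benjamini-Hochberg adjustment over 12341 genes that passed filterByExpr (minimum count 10, minimum total 15). CPM were scaled by TMM. Standard errors are of the log2 fold change, and intervals of count ratios cover counting error only. The common biological coefficient of variation was 0.12, and a CPM of 1.03 stands for 3 counts at the lowest depth.

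The members and the 25 gene lists were chosen with earlier results of these data known, so the lists are described by counts and medians. The named genes are all tested metallothioneins, those the study names, up to 3 called members per list and direction with the largest LFC, the 10 largest rises and falls among called genes whose mean count reached 50, the 3 called genes with the highest counts per direction, and HMOX1, GDF15, and HSPA6, 47 in all, of which 1 is not reported here. Arsenic and cadmium libraries with the same number did not deviate together (correlations of -0.00717, 0.0207, and 0.0225), so they were not treated as pairs. Alternatives were a test of an LFC beyond 1 (glmTreat), RLE scaling, no filter and a stricter filter (CPM 5 in 3 libraries), a replicate block, a fit on only the libraries compared, each library left out, and DESeq2 1.42.0. In counts simulated for this comparison over 12238 genes, 94 of 100 genes changed by an LFC of 1.5 and 100 of 100 changed by 2.5 were called, with 5 unchanged genes called. The counts were drawn with the spread that the model had fitted, and the changed genes were picked above a CPM of 5. Changes in genes below that level were not simulated. Motifs were searched on both strands of the 250 bases upstream of RefSeq transcription starts.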

Additional observations from a re-analysis of the deposited data

Results flagged for a closer look

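The difference between arsenic and cadmium was itself different at 24 h and at 12 h for 23 of the named genes, by edgeR's test of 24 h minus 12 h with an adjusted p below 0.05 over all genes. These values are changes of an LFC, positive toward arsenic, and the libraries at 12 and 24 h are separate. Many of the named genes were chosen by their difference at 24 h, so a larger difference at 24 h is in part given by that choice. GDF15 changed most, by 3.01, followed by UNC5B with 2.22, HTRA3 with 2.02, HMOX1 with 2.01, and TXNRD1 with 1.81. ALDH1L2 changed by 1.68, HERPUD1 by 1.57, SEL1L3 by 1.41, SESN2 by 1.30, and DUSP4 by 1.27. The cystine exchanger SLC7A11 changed by 1.17, with PSAT1 at 1.15, MTHFD2 at 1.11, and GCLM at 1.09. SLC7A5 changed by 0.963, SLC3A2 by 0.781, and WARS1 by 0.732. For MT1E and SLC30A1, whose level was higher with cadmium at both times, the changes of 0.691 and 0.567 made the difference smaller. Toward cadmium, HSPA1A changed by -0.867, GADD45B by -1.08, CPA4 by -1.21, and ARC by -2.20. With single libraries left out, the adjusted p of HSPA1A, ARC, CPA4, SLC30A1, WARS1, HTRA3, and ALDH1L2 passed 0.05 at least 1 time, up to 0.172 for SLC30A1 without cadmium 24 h replicate 3. The other 16 genes kept an adjusted p below 0.05 in each such fit.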

How the results depend on the processing

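With the test of an LFC beyond 1, 17 genes were called higher and 31 lower with arsenic than with cadmium at 24 h, 45 and 15 with arsenic and 25 and 0 with cadmium against non-treated cells, 0 and 17 between the metals at 12 h, and 2 and 0 for the change from 12 to 24 h. With only the libraries compared in the fit, 102 genes were lower with arsenic at 24 h, 38 and 4 were higher and lower with cadmium than without, and 130 and 64 changed from 12 to 24 h. Without the filter, 6 genes were lower with cadmium than in non-treated cells. Leaving out each library in turn gave 102 to 138 genes higher and 125 to 165 lower with arsenic at 24 h, 5 to 12 lower with cadmium than without, 23 to 40 higher with arsenic at 12 h, and 97 to 398 and 48 to 295 for the change from 12 to 24 h, where the lowest numbers came without cadmium 24 h replicate 3 and the highest without arsenic 12 h replicate 3. DESeq2 called 121 and 183 genes at 24 h. With a replicate block the numbers were 122 and 178, and among the named genes the block only moved the change from 12 to 24 h of SLC30A1 (adjusted p = 0.0502) and WARS1 (adjusted p = 0.05) out of significance. Over 149 values of named genes, 1904 of 2071 alternative results kept their direction and their side of the threshold, and none changed direction. Of the others, 147 no longer passed the adjusted p, 65 of them in the test of an LFC beyond 1, and 19 kept it but fell to an LFC within 1. For SLC7A5, 1 result with an adjusted p below 0.05 throughout passed an LFC of 1. The cause of these shifts was not tested. At the lowest depth, 3 counts stand for 1.03 CPM, which limits what can be seen for genes near that level.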

Other observations

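Genes outside the lists, chosen after their values were seen, included secreted ligands and signaling regulators that were lower with arsenic than with cadmium. EDN1, for endothelin, had 17.7, 32.1, and 35.9 CPM with arsenic and 87.3, 93.6, and 101 CPM with cadmium (LFC -1.70, standard error 0.14, adjusted p = 4.05e-15 from edgeR). HBEGF, an EGF receptor ligand, had an LFC of -1.55 between the metals, and STC1, a secreted glycoprotein, of -1.25. RGS4 and RGS2, which turn off G-protein signaling, had LFCs of -1.61 and -1.46, and RHOB, a small GTPase, of -1.63. Against non-treated cells, the LFC was -1.84 with arsenic and -0.14 with cadmium for EDN1, and 0.24 and 1.70 for RGS2. ID2, an inhibitor of basic helix-loop-helix factors, had -0.25 with arsenic and 1.45 with cadmium, and SGK1, a stress-regulated kinase, -0.12 and 1.54. In FBXO32, a ubiquitin ligase subunit, the LFCs were 1.57 and 3.01, and both passed the test.

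Among genes that were higher with arsenic, KITLG, the KIT ligand, had 40.5, 30.1, and 35.9 CPM with arsenic and 12.7, 12.9, and 16.2 CPM with cadmium (LFC 1.36, standard error 0.22, adjusted p = 3.11e-06). ANGPT1, an angiopoietin, had an LFC of 1.17. C21orf91 had 97.7, 109, and 91.6 CPM with arsenic and 32.3, 21.2, and 24.4 CPM with cadmium (LFC 1.92). Against non-treated cells it had an LFC of 0.54 with arsenic and -1.38 with cadmium, so it was lower with cadmium (adjusted p = 5.15e-07).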
